A study of Mus musculus with 352 samples.

Results

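Muscle in which the clock gene Bmal1 had been switched back on in skeletal muscle fibres alone (Mu-RE) was compared with wild-type muscle (WT) at 10 weeks of age. The comparison took every library whose title placed it in the Mu-RE or the WT group of that age with food always present, which gave 48 libraries, or 13.6% of those in the series. There were 25 Mu-RE mice, 12 females and 13 males, against 23 WT mice, 12 females and 11 males. All were C57BL/6 mice aged 10 to 12 weeks on ad libitum food, and tibialis anterior, a fast muscle of the lower leg, was frozen at 6 times of day, 4 h apart, given as zeitgeber time (ZT) in h from lights on. Each time point had 4 mice per group, except 5 Mu-RE mice at ZT8 and 3 WT mice at ZT0. Mu-RE mice had the genotype Bmal1(stopFL/stopFL), Hsa-Cre(-/tg): both Bmal1 alleles carry a stop cassette that the Hsa-Cre transgene, driven by the skeletal actin promoter, removes in muscle fibres. Every other cell of these mice, in the muscle, the brain and elsewhere, keeps the cassette. Values of 23 Bmal1 knockouts of the same age, with the genotype Bmal1(stopFL/stopFL), Cre(-/-), and of 24 Mu-RE, 24 knockout and 22 WT mice of 26 weeks on the same food are given beside some results. WT mice are labelled wild-type and are not described as carrying the allele or the transgene, so the allele, the Cre and the missing Bmal1 of other cells cannot be told apart. The question was what muscle Bmal1 alone leaves different from wild type in the 24 h mean level and in the daily rhythm of each gene.

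BMAL1, the protein of Bmal1 (gene symbol Arntl), pairs with CLOCK and switches on genes that carry an E-box in their control regions. Among these genes are the Period and Cryptochrome repressors, which shut off their own activation, and the REV-ERB receptors (Nr1d1 and Nr1d2), which repress Arntl, and together the loops run through a cycle each day. In muscle the clock is known for timing glucose use and the breakdown of fuels, and it receives time cues from the brain and from meals.

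Levels are deposited log2 FPKM values (fragments per kilobase of gene, scaled to library size), and a difference is Mu-RE minus WT on the log2 scale. A fitted 24 h curve gave each gene a mean level, an amplitude (the log2 distance from that mean to the fitted peak) and a peak time. Adjusted p-values come from limma over the 9862 genes tested, with calls at 0.05, unless another test or an alternative run is named. The read depth recovered from the values, in megareads (M), was 18.55 to 29.0 M reads in Mu-RE libraries and 17.65 to 47.8 M reads in WT libraries. Within a group, any pair of libraries correlated across genes with r between 0.957 and 0.988 in Mu-RE and between 0.914 and 0.983 in WT. All 10 fibre markers on the list, such as Acta1 and Ckm, passed the filter, and their summed level was 31525 to 47160 FPKM in Mu-RE and 28103 to 45488 FPKM in WT libraries. In whole muscle, fewer cells of a type and less RNA per cell cannot be told apart. WT replicate 1, taken at ZT0, stood apart in 13 heat shock and chaperone genes, with a mean of 7.43 log2 FPKM against 6.15 in the next highest library. It was also the library with 47.8 M reads, against 30.15 M reads in the next deepest. Leaving that library out gave 1177 genes higher and 1276 lower in level, against 1242 and 1369 with it.

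The clock genes whose day course changed include several that carry the letters BMAL1 is known to bind, and their promoter windows are shown for that reason. Windows of 250 bases before to 50 bases after the gene's start were taken from RefSeq on build GRCm38.p6, and the E-box searched was CACGTG, which reads the same on both strands. The D-box TTATGTAA, bound by DBP and TEF, was searched on both strands. Of the 10 core clock genes with a called rhythm difference, 9 had a window, 3 of these held an E-box (Per1, Cry1 and Tef) and 1 a D-box (Per3). The windows lie at chr11:69098699-69098998 on the + strand for Per1, chr10:85185005-85185304 on the - strand for Cry1, chr15:81802423-81802722 on the + strand for the first Tef window and chr4:151044616-151044915 on the - strand for Per3. They are written 5′ to 3′ with the matched letters in capitals.
Per1: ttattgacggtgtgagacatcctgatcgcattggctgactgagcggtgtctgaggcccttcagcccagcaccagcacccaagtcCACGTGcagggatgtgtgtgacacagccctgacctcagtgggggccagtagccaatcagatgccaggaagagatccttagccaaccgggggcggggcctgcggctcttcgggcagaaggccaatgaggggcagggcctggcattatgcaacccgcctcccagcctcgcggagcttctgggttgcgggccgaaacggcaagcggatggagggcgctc
Cry1: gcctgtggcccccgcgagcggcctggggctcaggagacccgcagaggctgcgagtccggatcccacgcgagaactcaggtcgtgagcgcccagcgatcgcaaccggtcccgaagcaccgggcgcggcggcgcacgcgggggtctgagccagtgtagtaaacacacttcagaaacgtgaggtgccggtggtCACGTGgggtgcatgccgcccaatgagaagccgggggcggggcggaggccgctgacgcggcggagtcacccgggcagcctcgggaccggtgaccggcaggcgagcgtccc
Tef: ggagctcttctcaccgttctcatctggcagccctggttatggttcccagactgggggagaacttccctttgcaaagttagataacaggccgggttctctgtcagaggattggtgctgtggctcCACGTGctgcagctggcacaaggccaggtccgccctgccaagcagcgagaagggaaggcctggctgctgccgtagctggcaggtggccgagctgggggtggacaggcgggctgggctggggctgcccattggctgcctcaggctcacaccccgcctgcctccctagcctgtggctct
Per3: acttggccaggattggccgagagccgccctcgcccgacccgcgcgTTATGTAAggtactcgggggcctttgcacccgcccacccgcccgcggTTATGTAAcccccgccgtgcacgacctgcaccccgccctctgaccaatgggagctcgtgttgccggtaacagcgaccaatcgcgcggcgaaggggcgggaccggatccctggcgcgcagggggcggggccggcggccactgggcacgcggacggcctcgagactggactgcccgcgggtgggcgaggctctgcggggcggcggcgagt
Among all genes tested, 12.5% of the 7425 with a window held the E-box and 0.566% held the D-box. Of all 32851 windows in the promoter table the shares were 7.15% for the E-box and 0.938% for the D-box. Among the 109 genes with a called rhythm difference, 90 had a window and 19 (21.1%) held the E-box, among them Wsb1 and Slc25a36 besides the clock genes. A match describes letters in a window and not a bound site.

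The muscle clock genes had little daily rhythm in Mu-RE mice, around daily means close to those of WT. Of the 16 core clock genes tested, 0 were called rhythmic in Mu-RE and 14 in WT, and the rhythm itself differed between the genotypes in 10. Across all genes tested, 1.11% had a called rhythm difference. The median fitted amplitude over the 16 genes was 0.14 in Mu-RE and 0.54 in WT, against 0.08 in Mu-RE and 0.11 in WT over all genes. Mice of the same time point differed from each other too: the SD within time points was 0.44 in Mu-RE and 0.41 in WT for Arntl, and 0.77 in Mu-RE and 0.52 in WT for Dbp, and its part in the amplitudes was not tested. With the 1st, 2nd, 3rd or 4th animal of every time point and group left out, Arntl, Nr1d1 and Per2 kept the rhythm difference each time, while Dbp lost it in 3 of these fits (adjusted p up to 0.212) and Per1 in 1 (0.0726). Per3, Nr1d2, Tef, Clock and Cry1 lost it in 2 to 4 of the 4 fits.

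Arntl (ENSMUSG00000055116, chr7:113207465-113314126 on GRCm38) had the following course. In Mu-RE mice it averaged 2.94 ± 0.40 log2 FPKM at ZT0, 2.63 ± 0.20 at ZT4, 2.51 ± 0.25 at ZT8, 2.06 ± 0.67 at ZT12, 2.84 ± 0.71 at ZT16 and 2.79 ± 0.13 at ZT20 (SD, n = 4 or 5). In WT mice it averaged 4.27 ± 0.93 log2 FPKM at ZT0, 3.24 ± 0.23 at ZT4, 1.90 ± 0.16 at ZT8, 1.07 ± 0.26 at ZT12, 2.54 ± 0.38 at ZT16 and 3.95 ± 0.29 at ZT20 (SD, n = 3 or 4). All 4 WT mice of ZT20 lay above every Mu-RE mouse of the day, and the 4 WT mice of ZT12 lay below all Mu-RE mice but 1. Mu-RE mice were spread from 1.39 to 2.77 at ZT12 and from 2.01 to 3.52 at ZT16. The amplitude was 0.33 in Mu-RE and 1.57 in WT, a peak-to-trough fold of 1.57 and 8.82, and the rhythm difference had an adjusted p of 5.65e-05. The daily mean differed by -0.19 (SE 0.12, adjusted p = 0.247), so no level difference of Arntl was called.

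Nr1d1 and Per2, both direct targets of BMAL1, also had small Mu-RE amplitudes. In Mu-RE mice Nr1d1 lay between 3.04 and 4.33 log2 FPKM over the whole day, with a median of 3.64, and in WT mice between 1.41 and 5.74, with a median of 3.88. Its amplitude was 0.22 in Mu-RE and 1.6 in WT (adjusted p for the difference 3.62e-06), and its WT peak fell at ZT5.2. Per2 lay between -0.17 and 1.48 log2 FPKM in Mu-RE mice, with a median of 0.73, and between -2.34 and 2.58 in WT mice, with a median of 0.92. Its amplitude was 0.24 in Mu-RE and 1.73 in WT (adjusted p = 7.41e-06). For both genes every Mu-RE mouse lay inside the WT range, so the groups overlapped and differed in spread over the day. The amplitude of Per1 was 0.37 in Mu-RE and 1.39 in WT (adjusted p = 0.000344), and that of Per3, the gene with the D-box pair shown above, was 0.26 in Mu-RE and 1.32 in WT (adjusted p = 0.0085).

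Dbp, a transcription factor that carries the clock's output through D-boxes, had the largest Mu-RE amplitude of the 16 clock genes. It lay between 0.56 and 4.43 log2 FPKM in Mu-RE mice, with a median of 3.01, and between -0.02 and 4.96 in WT mice, with a median of 3.32. The amplitude was 0.53 in Mu-RE and 1.84 in WT (adjusted p = 0.0209 for the difference). At ZT16 the 4 Mu-RE mice had 3.36, 3.23, 2.00 and 0.56 log2 FPKM, against 3.32, 2.98, 2.68 and 3.21 in WT mice. Cry1, Nr1d2, Tef and Clock also had called rhythm differences, with Mu-RE amplitudes of 0.02 to 0.13 and WT amplitudes of 0.46 to 0.54. Nfil3, the repressor that competes with DBP, had amplitudes of 0.39 in Mu-RE and 1.1 in WT, with an adjusted p of 0.109.

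In mean level, 1 of the 16 clock genes was higher and 3 were lower in Mu-RE, with a median difference of -0.08, a share near the 26.5% of all genes called in level, so the count says nothing particular about clock genes. Tef was higher by 0.30 (SE 0.06, adjusted p = 7.14e-05). Bhlhe40, a repressor that competes for E-boxes, had a difference of -0.44 (SE 0.12, adjusted p = 0.0052), Clock one of -0.21 and Rora one of -0.15. The same genes in Bmal1 knockouts of 10 weeks, which share the WT mice and the stop allele, differed from WT by -0.83 for Tef, -1.78 for Bhlhe40, 0.94 for Clock and -0.66 for Rora.

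**Figure D1:**
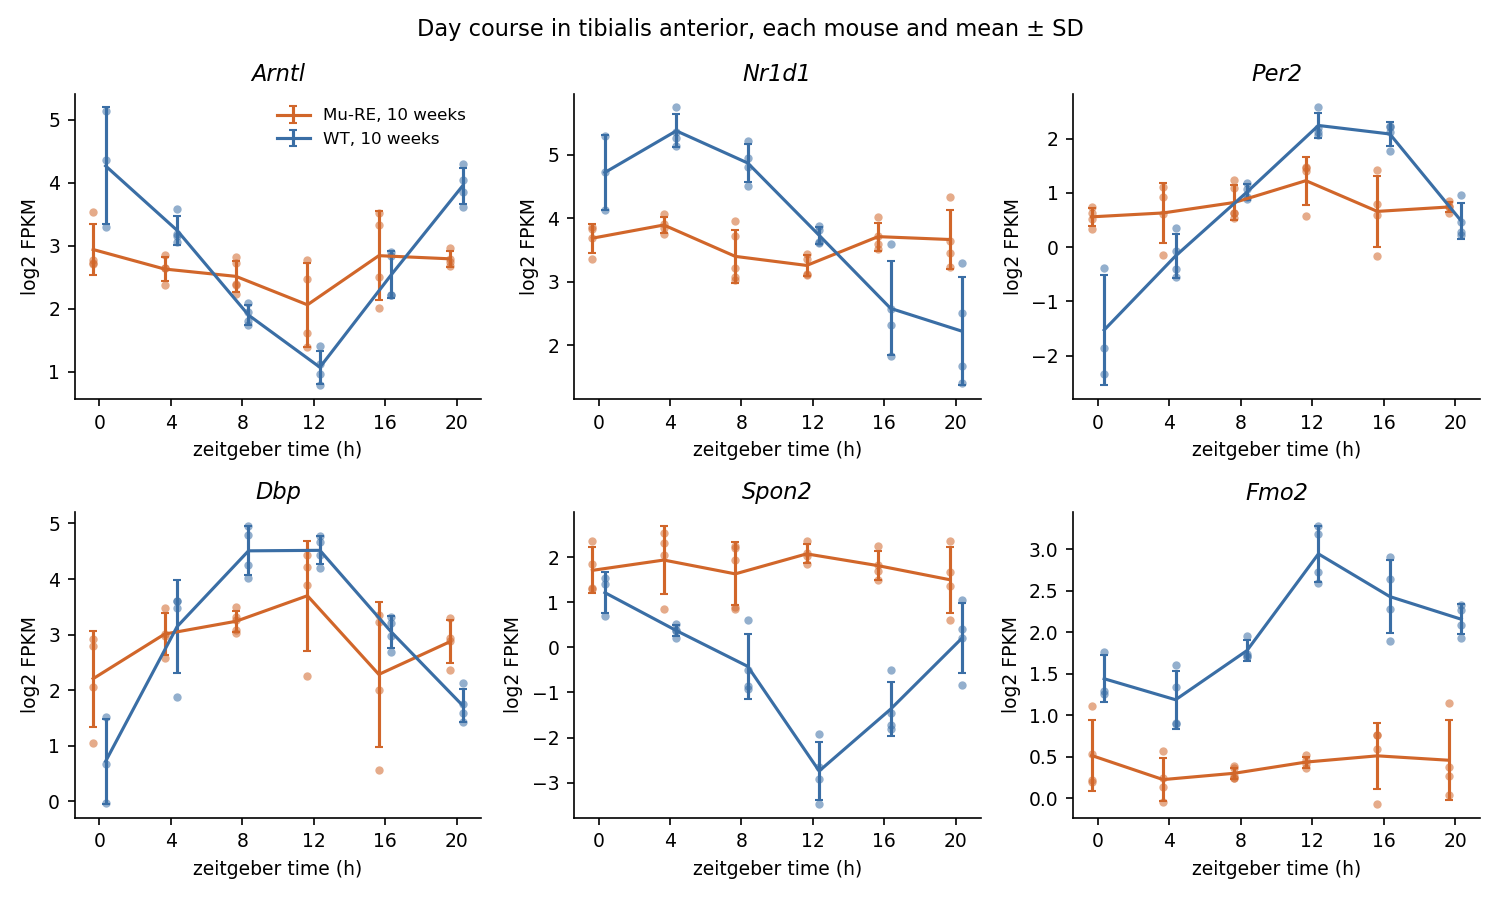
Levels of 6 genes (log2 FPKM) over zeitgeber time in h, with each mouse as a point and the mean ± SD as a line, for Mu-RE mice (orange) and WT mice (blue) of 10 weeks. The Mu-RE means vary less over the day than the WT means in each panel, Spon2 stays above its highest WT mean all day and Fmo2 stays below its lowest WT mean.

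Few genes of any kind were called rhythmic in Mu-RE. Of 9862 genes, 7 (0.071%) were called rhythmic in Mu-RE and 576 (5.84%) in WT, and 6 genes were rhythmic in both. At an unadjusted p under 0.05 the counts were 1297 in Mu-RE and 2218 in WT. The rhythm difference was called for 109 genes, 105 of them with the smaller amplitude in Mu-RE. Their median amplitude was 0.12 in Mu-RE and 0.40 in WT, values that belong to the choice of the genes. The count of 109 fell to between 7 and 45 when the 1st, 2nd, 3rd or 4th animal of every time point and group was left out. Arntl, Nr1d1, Per2, Spon2 and Dusp7 kept their rhythm difference in each of these.

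A list of rhythmic genes that owed nothing to the 10-week mice came from WT mice of 26 weeks, in which 103 genes (1.04%) were called rhythmic. Along the peak times of those older mice, the median amplitude of the 103 genes was 0.09 in Mu-RE and 0.46 in WT mice of 10 weeks, against -0.00487 in Mu-RE and 0.04 in WT over all genes. This amplitude along the peak times of the older mice was smaller in Mu-RE in 101 of the 103 genes, against 67% of all genes. With each group's own peak time, the median amplitude of the 103 genes was 0.16 in Mu-RE and 0.48 in WT. The rhythm was called in 2 of them (1.94%) in Mu-RE and in 78 (75.7%) in WT, and its difference in 28 (27.2%).

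**Figure D2:**
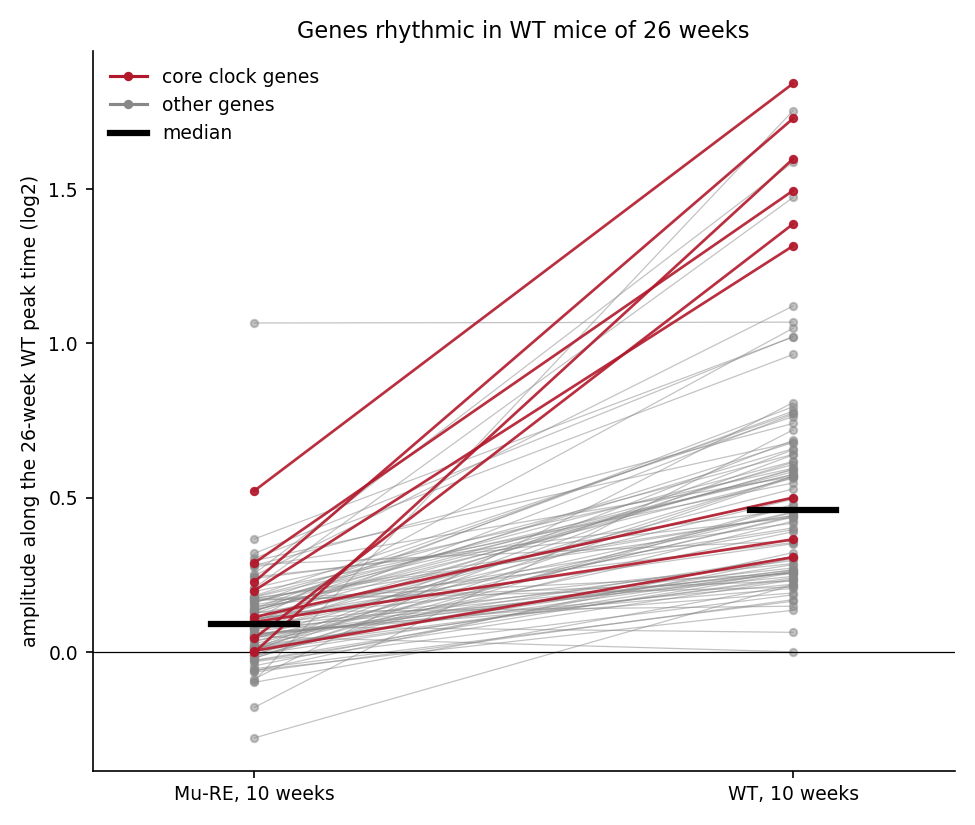
Amplitude (log2) along the peak time of 26-week WT mice, for the 103 genes rhythmic in those mice, in Mu-RE (left) and WT mice (right) of 10 weeks, with core clock genes in red and medians as black bars. The medians are 0.09 in Mu-RE and 0.46 in WT, and a line that stays level near the top is Cebpb.

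The 2 genes of that list called rhythmic in Mu-RE were Cebpb and Klf13, of which Cebpb kept the call in every alternative run and Klf13 lost it in 5 of 16 (adjusted p up to 0.327). Cebpb, a transcription factor that responds to hormones and nutrients, had its lowest means at ZT0 and ZT4 and its highest at ZT16 in both genotypes. Its means in Mu-RE mice were 0.29 log2 FPKM at ZT0, 0.30 at ZT4, 1.13 at ZT8, 2.14 at ZT12, 2.36 at ZT16 and 1.81 at ZT20. Its means in WT mice were -0.11 log2 FPKM at ZT0, 0.37 at ZT4, 0.58 at ZT8, 1.44 at ZT12, 2.46 at ZT16 and 1.48 at ZT20. The amplitude was 1.15 in Mu-RE, with a peak at ZT14.8, and 1.09 in WT, with a peak at ZT15.5. Its rhythm had an adjusted p of 1.78e-06 in Mu-RE and 0.000196 in WT, and the difference between them one of 0.757. Other Mu-RE rhythms were in Gnas, Gm44349, Frat1 and Taf10, with peaks between ZT14.3 and ZT14.9. Each of these lost its call in some alternatives: Gnas in 2 of 15, Gm44349 in 4 of 17, Frat1 in 5 of 16 and Taf10 in 8 of 17.

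Spon2, which encodes the secreted matrix protein spondin 2, and Fmo2, a flavin monooxygenase, differed in rhythm and in level at once. Spon2 (chr5:33198184-33218455) lay between 0.60 and 2.54 log2 FPKM in Mu-RE mice, with a median of 1.85, and between -3.47 and 1.54 in WT mice, with a median of -0.50. At ZT12, the WT trough, the 4 Mu-RE mice had 2.34, 2.08, 1.84 and 2.01 log2 FPKM, against -2.92, -1.93, -2.65 and -3.47 in WT mice, and the groups did not overlap there. At ZT0 they had 1.85, 1.31, 1.30 and 2.36 in Mu-RE, against 1.54, 1.40 and 0.70 in WT, and they did overlap. The amplitude was 0.11 in Mu-RE and 1.75 in WT (adjusted p = 2.95e-05), and the mean level was 4.61-fold higher in Mu-RE (difference 2.20, SE 0.17, adjusted p = 3.82e-13). Fmo2 (chr1:162874317-162898726) showed the opposite sign. It lay between -0.07 and 1.14 log2 FPKM in Mu-RE mice, with a median of 0.36, and between 0.89 and 3.28 in WT mice, with a median of 1.94. Its amplitude was 0.12 in Mu-RE and 0.81 in WT (adjusted p = 0.00352), and its mean level was lower in Mu-RE (difference -1.57, SE 0.09, adjusted p = 1.66e-17). Knockout mice of 10 weeks, which share the WT mice, differed from WT by 2.12 for Spon2 and -1.66 for Fmo2, and Mu-RE differed from knockout by 0.08 for each gene. Neither of these last values was called (adjusted p = 0.758 for Spon2 and 0.606 for Fmo2).

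In daily mean level 1242 genes (12.6%) were higher and 1369 (13.9%) lower in Mu-RE than in WT, most of them by small amounts. The median size of a called difference was 0.24, and 104 genes were at least 1.5-fold higher and 139 at least 1.5-fold lower. At least 2-fold differences were 20 higher and 34 lower. The ranges of the genotypes over the whole day overlapped in every gene tested (0% without overlap).

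**Figure D3:**
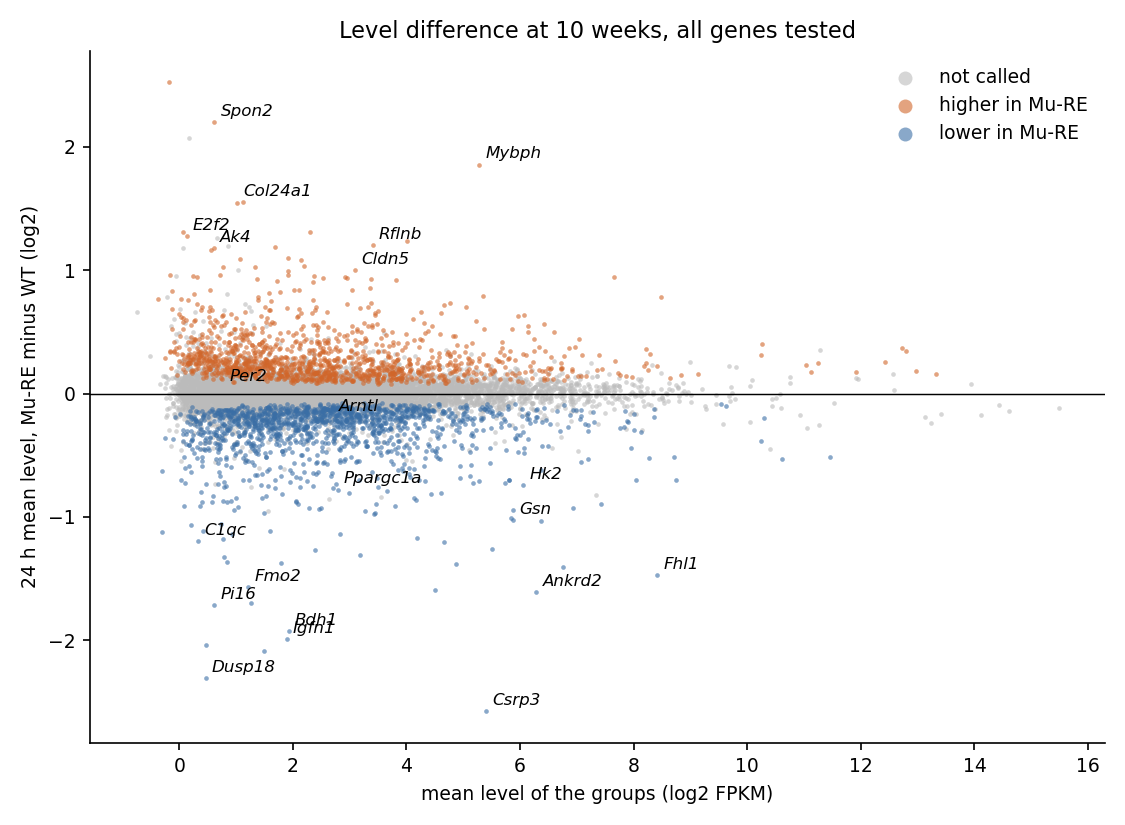
Difference in 24 h mean level (log2, Mu-RE minus WT) against the mean level of the groups (log2 FPKM) for 9862 genes, with called genes in colour. Spon2 and Mybph lie highest among the labelled genes, Csrp3 and Dusp18 lowest, and Arntl and Per2 lie near 0.

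The genes highest in Mu-RE relative to WT after Spon2 included muscle proteins and enzymes. Mybph, a myosin-binding protein of the thick filament, lay between 4.94 and 7.73 log2 FPKM in Mu-RE mice, with a median of 6.21, and between 2.20 and 5.77 in WT mice, with a median of 4.53. Every Mu-RE mouse was above the WT median, and the difference was 1.86 (SE 0.22, adjusted p = 1.56e-08). Col24a1, a fibrillar collagen, was higher by 1.55, E2f2, a cell cycle factor, by 1.28, Rflnb, a regulator of filamin, by 1.21, and Ak4, a mitochondrial adenylate kinase, by 1.18. Sh3rf2, Crybb1, Rasd2, Rbp7 and Mfap4 were higher by 1.09 to 1.31. Mir1968 had a fitted difference of 2.53, but 9 of the 23 WT libraries and 0 of the Mu-RE libraries had it near the lowest values of the table. With 1 FPKM added before the log its call was lost. Against knockouts of the same age, Mu-RE differed by 2.61 for Col24a1 and 2.31 for Ak4, and by -1.16 for Mybph and -0.92 for E2f2. Knockouts differed from the shared WT mice by -1.07 for Col24a1, -1.15 for Ak4, 2.96 for Mybph and 2.21 for E2f2.

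The genes lowest in Mu-RE were led by Csrp3, the muscle LIM protein of the Z-disc and a sensor of stretch. It lay between 2.58 and 5.94 log2 FPKM in Mu-RE mice, with a median of 4.07, and between 4.45 and 9.93 in WT mice, with a median of 6.32. The difference was -2.58 (SE 0.35, adjusted p = 2.40e-07), or a level 5.96-fold lower in Mu-RE. The SD within time points was 0.83 in Mu-RE and 1.43 in WT, so WT mice were spread more widely, and the 3 WT mice of ZT0 had 9.93, 9.40 and 8.20. Atf3, a stress-induced transcription factor, differed by -2.09, Nr4a3, an orphan receptor induced by exercise, by -1.70 and Ankrd2, a stretch-responsive protein of the sarcomere, by -1.61. Tnfrsf12a, the receptor of TWEAK, differed by -1.59, Fhl1, a LIM protein, by -1.47 and Hspb7, a small heat shock protein, by -1.41. Dusp18, a phosphatase, differed by -2.31, Igfn1, a Z-disc protein, by -1.99 and Bdh1, the mitochondrial enzyme of ketone use, by -1.92. Of 13 heat shock and chaperone genes 5 were lower and 0 higher, against 13.9% lower and 12.6% higher of all genes. The list median was -0.25, and Hsp90aa1 had -0.62 and Bag3 -0.56. Without WT replicate 1 those values were -0.51 for Hsp90aa1, -0.49 for Bag3, -1.86 for Atf3 and -2.45 for Csrp3, and all stayed called. The summed level of the heat shock list was 1072 to 1615 FPKM in Mu-RE and 1240 to 7329 FPKM in WT libraries, and its part in the result was not tested.

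Most marker genes of macrophages and fibroblasts were lower in Mu-RE muscle. All 7 tested macrophage and lymphoid markers were lower, with a median of -0.79, against a median of 0.00 for all genes and 13.9% of all genes lower. C1qc, a chain of complement component C1q made by tissue macrophages, lay between -1.85 and 0.88 log2 FPKM in Mu-RE mice and between 0.04 and 1.93 in WT mice, a difference of -1.20 (SE 0.16, adjusted p = 9.48e-08). C1qa differed by -1.11, C1qb by -0.97 and Lyz2, the macrophage lysozyme, by -0.79. The summed level of the 10 markers in the table was 20.3 to 66.5 FPKM in Mu-RE and 33.3 to 108 FPKM in WT libraries, and the defining receptors Csf1r and Adgre1 were low in both, with medians of 0.931 and 0.179 FPKM in Mu-RE and 1.28 and 0.345 FPKM in WT. Mrc1, also under the filter, was nearly equal, with medians of 1.24 FPKM in Mu-RE and 1.28 FPKM in WT.

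Of 7 tested fibroblast markers 5 were lower and 0 higher, with a median of -0.70, against 13.9% of all genes lower. The 2 not called were Col1a1, with 0.33, and Lum, with -0.36. Pi16, a marker of fibroblasts around vessels, lay between -1.62 and 0.70 log2 FPKM in Mu-RE mice, with a median of -0.22, and between 0.29 and 3.34 in WT mice, with a median of 1.41. The difference was -1.72 (SE 0.20, adjusted p = 1.25e-08), and the groups overlapped only over the low end of WT. Gsn, gelsolin, differed by -1.03, Dpt, dermatopontin, by -0.94 and Dcn, decorin, by -0.70. The summed level of the 8 markers was 73.8 to 269 FPKM in Mu-RE and 135 to 406 FPKM in WT libraries, and Pdgfra, which defines the cells, had a median of 0.717 FPKM in Mu-RE and 1.18 FPKM in WT. The part of these markers in the differences of other genes of the tissue between the fibres was not tested. Of the endothelial and mural markers, 2 of 13 were higher and 1 lower, with a median of 0.03, a called share no higher than the 26.5% of all genes. Cldn5, the tight junction protein of endothelium, was higher by 1.0 and Cdh5 by 0.25, while Flt1 was lower, with -0.27. None of 3 satellite cell, 5 red blood cell or 1 adipocyte markers tested was called, 1 of 3 nerve markers was higher and 1 of 4 tendon markers lower. Knockouts of 10 weeks differed from the shared WT mice by -1.17 for C1qc, -1.90 for Pi16 and -1.18 for Gsn, and Mu-RE differed from knockout by -0.05 for C1qc, 0.16 for Pi16 and 0.15 for Gsn, none of the last 3 called.

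Several genes of fuel sensing and glucose handling were lower in Mu-RE, in lists to be read against the 12.6% of all genes called higher and 13.9% called lower. Of 15 mitochondrial and nuclear energy regulators 6 were lower and 1 higher, with a median of -0.12. Ppargc1a, the coactivator of mitochondrial biogenesis, was lower (difference -0.78, SE 0.11, adjusted p = 1.14e-06), and so was Esrrg, an oestrogen-related receptor, with -0.72. Prkag3, the AMPK subunit of fast fibres, was higher by 0.70. Of 25 glucose uptake and glycolysis genes 7 were lower and 1 higher, with a median of -0.06. Hk2, hexokinase 2, lay between 5.24 and 6.29 log2 FPKM in Mu-RE mice and between 5.80 and 7.50 in WT mice, a difference of -0.74 (SE 0.11, adjusted p = 6.40e-07). Tbc1d1, which holds back glucose transporter vesicles, differed by -0.82 and Slc2a4, the insulin-regulated transporter GLUT4, by -0.31. The 1 gene of the list called higher was Tbc1d4, by 0.35. Of 14 glycogen genes 3 were lower and 2 higher, in either direction not far from the share over all genes: Gbe1, the branching enzyme, had -0.48, Ugp2 -0.44 and Gys1, glycogen synthase, -0.42, and Pgm1 was higher by 0.22. Oxidative phosphorylation genes were close to WT, with 0 of 30 higher and 2 lower and no member beyond 0.22, and 0 of 10 mitochondrial genome transcripts were called, with a median of -0.17.

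Among genes that follow meals and hormones, Irs2, an insulin receptor adaptor, differed by -0.94 (SE 0.25, adjusted p = 0.00449), Odc1, of polyamine synthesis, by -0.80 and Smox by -0.73, in a list of 19 with 4 lower and 2 higher, near the 26.5% of all genes called. Arrdc2 was higher by 0.74 and had a called rhythm difference, with amplitudes of 0.55 in Mu-RE and 1.66 in WT. In the glucocorticoid list 1 of 14 was lower and 2 higher, again no more than the share of all genes: Fkbp5 differed by -0.87 and Sgk1 by 0.53. Of 17 amino acid genes 7 were higher and 3 lower, with a median of 0.09, and the members with the smallest p, all of branched-chain breakdown, were Bckdhb with 0.41, Bcat2 with 0.39, Ivd with 0.34 and Dbt with 0.34. Other genes of that pathway in the list did not all follow: Hibch was lower, with -0.15, and Bckdk, Mccc1 and Ppm1k were not called. Of 21 lipid synthesis and storage genes 7 were higher and 5 lower, with a median of -0.01. The amino acid and lipid lists had larger called shares than the 26.5% of all genes. Pnpla3, a lipid droplet hydrolase, was higher by 0.82 and Agpat2, of triglyceride synthesis, by 0.45, while Plin3, a droplet coat protein, had -0.50.

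Most genes of fast fibres were higher in Mu-RE, apart from myosins of the less fast types. The lists here are to be read against the 12.6% of all genes called higher and 13.9% called lower. Of 13 fast fibre genes 8 were higher and 2 lower, with a median of 0.20. The 2 lower ones were the myosin heavy chains Myh2 of type IIA fibres, with -0.89 (SE 0.18, adjusted p = 0.000224), and Myh1 of type IIX fibres, with -0.53, while Myh4 of type IIB fibres was higher by 0.35 and Mybpc2 by 0.40. Of 8 slow fibre genes 1 was higher and 2 lower, and Myoz2 had -0.91. Of 14 calcium handling and contraction genes 7 were higher and 2 lower, with a median of 0.13, and Casq2 was higher by 0.51 and Jph2 by 0.31. In the matrix list 4 of 24 were higher and 3 lower, near the 26.5% of all genes called. The basement membrane collagens Col4a1 and Col4a2 were higher by 0.65 and 0.66, and their rhythm was also called different, with amplitudes of 0.16 and 0.19 in Mu-RE and 0.59 and 0.58 in WT.

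**Figure D4:**
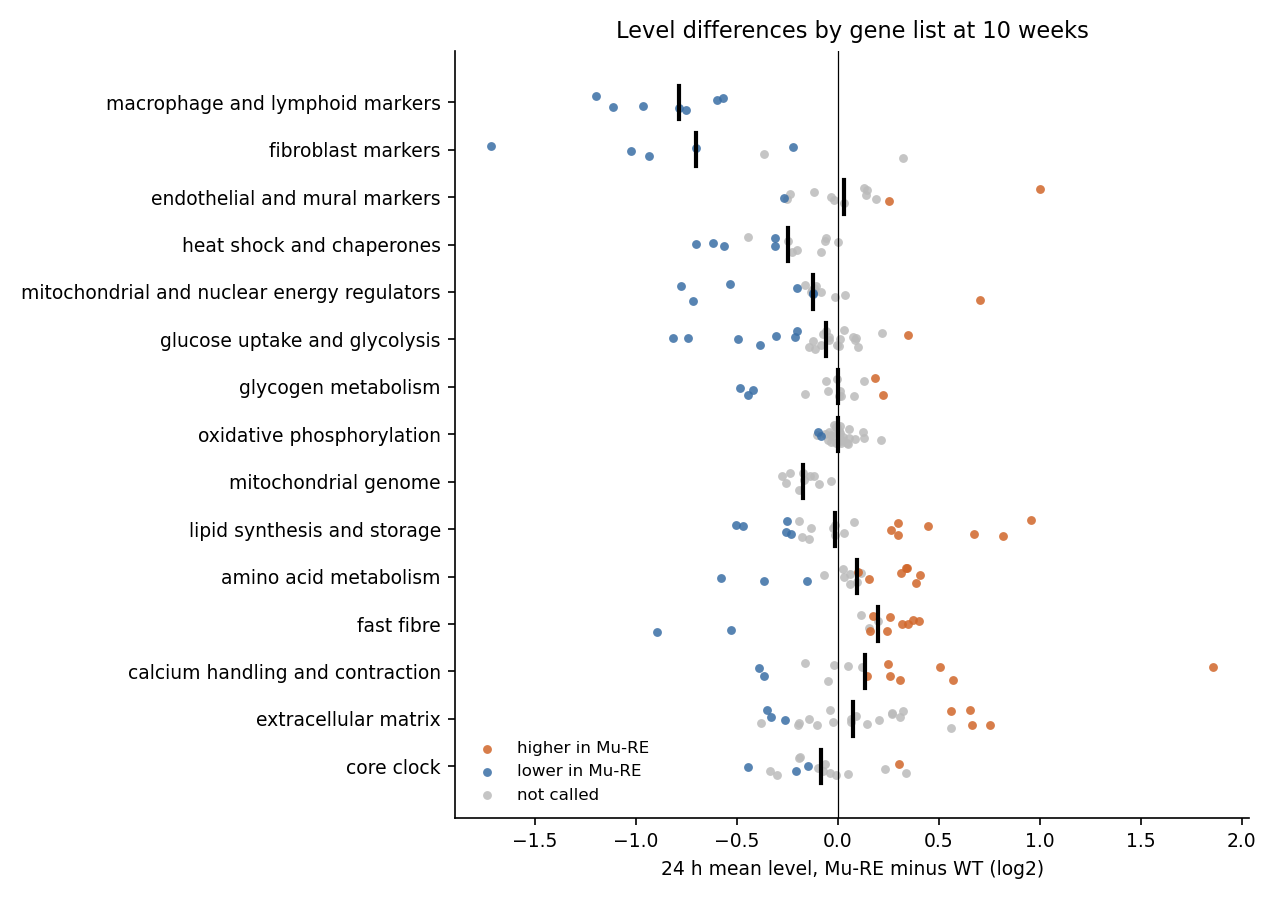
Level differences (log2, Mu-RE minus WT) of the tested members of 15 gene lists, with the list median as a black bar and called members in colour. All macrophage and lymphoid markers lie at or below -0.57, and oxidative phosphorylation genes lie between -0.10 and 0.22.

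Genes that differed in older Bmal1 knockouts had mostly small differences in Mu-RE, and more than the background share of them was called. The list came from knockout against WT mice of 26 weeks, which share no mouse with the 10-week comparison, with a call and at least a 1.5-fold difference. Of the 521 genes (5.28%) higher in those knockouts, 179 (34.4%) were higher and 85 (16.3%) lower in Mu-RE at 10 weeks, against 12.6% higher and 13.9% lower of all genes, and 257 were not called. Their median difference was 0.09 in Mu-RE at 10 weeks, against 0.83 in knockouts at 26 weeks. Of the 519 genes (5.26%) lower in those knockouts, 145 (27.9%) were lower and 77 (14.8%) higher in Mu-RE, 297 were not called, and the median was -0.09, against -0.84 in knockouts. Within 1.5-fold of WT lay 84.6% of the first list and 87.9% of the second, against 97.3% of all genes. The knockout medians come from the mice and the 1.5-fold cut that chose the genes, and from another age. Set beside the Mu-RE medians, they do not measure how much of the difference muscle Bmal1 removed.

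For 5 genes chosen with their knockout values known, the levels at 10 weeks are set side by side. Ces1d, a carboxylesterase, differed from WT by 0.93 in Mu-RE (SE 0.11, adjusted p = 8.95e-09) and by -6.02 in knockouts, so its Mu-RE level lay above WT. Car3, carbonic anhydrase 3, differed by 0.22 in Mu-RE (adjusted p = 0.0599) and by -3.76 in knockouts. Mylk4, a myosin kinase, differed by -0.05 in Mu-RE and by -3.30 in knockouts. Dupd1, a phosphatase, differed by -0.53 in Mu-RE and by 2.65 in knockouts, and Cdkn1a, the cell cycle inhibitor p21, by 0.27 in Mu-RE (adjusted p = 0.261) and by 2.64 in knockouts.

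The same contrast in separate mice of 26 weeks, 24 Mu-RE and 22 WT, shows which level differences recurred. At 26 weeks 1616 genes (16.4%) were higher and 1426 (14.5%) lower, 30.8% in all. Of the 2611 genes called at 10 weeks, 678 were called in the same direction at 26 weeks, which is 26% of the 10-week and 22.3% of the 26-week genes, and 281 in the opposite direction. Of the 243 genes called at 10 weeks with at least a 1.5-fold difference, 118 (48.6%) recurred, 58 of them higher and 60 lower, 22 were called in the opposite direction and 103 were not called. Spon2 had 2.20 at 10 weeks and 2.48 at 26 weeks, Mybph 1.86 at both ages, Pi16 -1.72 and -1.76, C1qc -1.20 and -1.10, and Tnxb, the matrix protein tenascin X, -1.14 and -1.33. The chemokines Cxcl14 and Ccl11 had -1.31 and -0.89 at 10 weeks and -1.84 and -1.65 at 26 weeks, and the matrix protein Smoc2 had -0.57 and -1.18.

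The difference between ages was itself called in 2609 genes, 1127 of them (43.2%) among those called at 10 weeks, against 26.5% of all genes. The same 10-week mice enter both calls, so the larger share belongs in part to the choice of the genes. Myh2 had -0.89 at 10 weeks and 1.03 at 26 weeks (adjusted p of the age difference 2.79e-07), and Bdh1 had -1.92 and 0.18. Csrp3 had -2.58 at 10 weeks and -0.38 at 26 weeks, and Ankrd2 had -1.61 and 0.51. The 5 genes with the smallest p for age were Fam120b, Bdh1, Ppp1r14c, Nfe2l1 and Slc16a10. Fam120b differed by -0.23 at 10 weeks and 0.89 at 26 weeks.

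**Figure D5:**
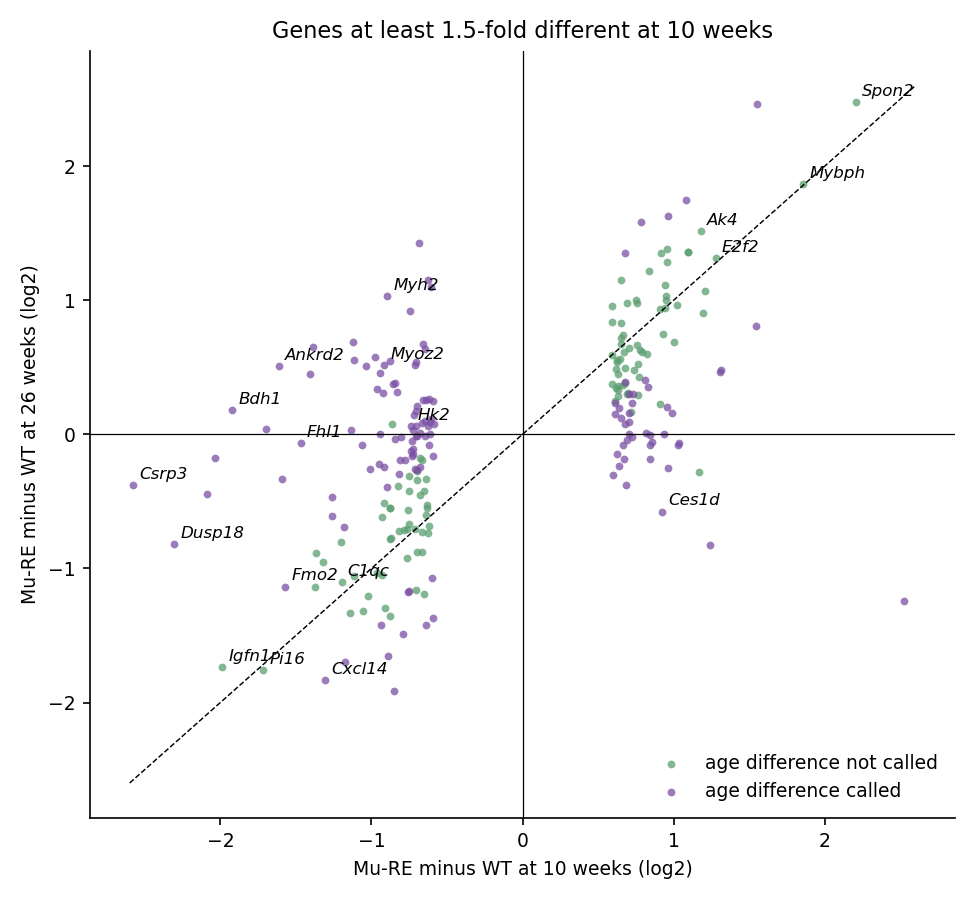
Mu-RE minus WT level difference (log2) at 10 weeks (x axis) and in separate mice of 26 weeks (y axis), for the 243 genes called at 10 weeks with at least a 1.5-fold difference, coloured by whether the age difference was called; the dashed line marks equal values. Spon2, Mybph, Pi16 and C1qc lie near the line, and Csrp3, Ankrd2, Bdh1 and Fhl1 lie near 0 or above at 26 weeks.

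The stop allele sits in Arntl on chromosome 7, and the genes around it were counted on their own. Within 10 Mb of Arntl, 86 genes were tested, of which 9 were higher and 9 lower (20.9%, against 26.5% of all genes), with Mical2, a cytoskeletal oxidase, the furthest from WT among those called at 0.55.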

How the data were processed

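RNA of whole tibialis anterior was sequenced as paired-end reads on a NovaSeq, per the labels' protocols. Reads were checked with FastQC 0.11.8, trimmed with Trim Galore 0.5.0, aligned with HISAT2 2.1.0 to GRCm38 and counted with featureCounts 1.6.2, and edgeR 3.30.0 and limma 3.44.1 were used, per the submitters' processing notes. The deposited values are log2 FPKM for 14413 genes, to which about 0.01 FPKM seems to have been added before the log. In 259 libraries the female and male means were equal for every gene within 1e-05, a centring that none of the sources used here describes, so the sexes were not compared. Depth came from the spacing of low values: 94.5% to 98.2% of them were whole reads within 0.1 read. Nothing in the labels names the litter or culture, so p-values measure the spread between these mice.

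Genes with a mean of at least 0 log2 FPKM over all libraries (9862) were fitted in limma 3.58.1 (R 4.3.3, trend and robust empirical Bayes) with a level, a 24 h cosine and sine for each group, and sex. Differences in level, in the cosine and sine pair, and between ages were tested with Benjamini-Hochberg adjustment at 0.05. The procedure was tested on simulated data. Genes named were the 12 largest called level differences in each direction (clone names left out), the 15 smallest p-values for the rhythm difference and 10 for rhythm in each group, all core clock genes, up to 4 members of each other list, the 10 smallest 26-week p-values among the 10-week calls and 5 for age; Ces1d, Car3, Mylk4, Dupd1 and Cdkn1a, and single markers, were chosen after their values were seen. Members and lists were chosen with earlier results of these data known. Promoter windows came from RefSeq. Alternatives are given in the closing section. Tables and figures were made with Python 3.11.15, pandas 2.3.3 and matplotlib 3.10.9.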

Additional observations from a re-analysis of the deposited data

Results flagged for a closer look

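The difference between Mu-RE and WT was itself different between 26 and 10 weeks (limma interaction, Benjamini-Hochberg adjusted) in 49 of the 96 genes looked at for this. Values here are the 26-week difference less the 10-week difference, on the log2 scale, so a positive one means that Mu-RE stood higher relative to WT at 26 weeks. It was positive in 30 genes, of which 29 were called lower in Mu-RE than in WT at 10 weeks, and negative in 19, of which 14 were called higher in Mu-RE at 10 weeks. The 10-week difference is part of this value, and most of the genes were named for it. The split of signs therefore follows in part from the choice of genes. In 10 genes the 10-week and 26-week differences were both called and had opposite signs, among them Myh2 and Myoz2.

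The positive values were 2.15 for Csrp3, 2.1 for Bdh1, 2.08 for Ankrd2, 1.91 for Myh2, 1.82 for Hspb7, 1.74 for Nr4a3, 1.63 for Atf3, 1.49 for Dusp18, 1.42 for Myoz2, 1.39 for Irs2, 1.39 for Fhl1, 1.25 for Tnfrsf12a, 1.11 for Fam120b, 1.11 for Cdkn1a and 0.87 for Esrrg. The others were 0.79 for Hk2, 0.78 for Odc1, 0.74 for Smox, 0.69 for Gbe1, 0.69 for Myh1, 0.66 for Bag3, 0.65 for Gys1, 0.60 for Nfe2l1, 0.60 for Ppargc1a, 0.54 for Hsp90aa1, 0.52 for Flt1, 0.52 for Tbc1d1, 0.49 for Ugp2, 0.44 for Fmo2 and 0.20 for Slc2a4. These include the glycogen genes Gbe1, Gys1 and Ugp2 and the myosin chains Myh1 and Myh2, so several of the metabolic and contractile differences reported at 10 weeks had another size in the older mice.

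Among genes with a negative value were several that stood higher in Mu-RE at 10 weeks and less so, or lower, at 26 weeks, and several that were lower at both ages and further below WT at 26 weeks. The values were -3.76 for Mir1968, -1.48 for Ces1d, -0.84 for Sh3rf2, -0.82 for Crybb1, -0.80 for Pnpla3, -0.77 for Ppp1r14c, -0.76 for Ccl11, -0.74 for Col24a1, -0.68 for Slc16a10 and -0.63 for Car3. The others were -0.62 for Sgk1, -0.60 for Prkag3, -0.60 for Smoc2, -0.53 for Cxcl14, -0.49 for Dpt, -0.32 for Pgm1, -0.28 for Tef, -0.22 for Bcat2 and -0.21 for Bckdhb. Cxcl14, Ccl11, Smoc2 and Dpt were lower in Mu-RE than in WT at both ages. Mir1968 was near the lowest values of the table in 9 of 23 WT libraries at 10 weeks.

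In 4 of the 66 groups of mice of a gene and a time point that were looked at, 1 mouse stood far from the rest, where chance alone marks about 1 group in 20. For Arntl at ZT0 the highest Mu-RE mouse had 3.54 log2 FPKM and the others 2.70 to 2.78. For Per2 at ZT12 the lowest Mu-RE mouse had 0.57 and the others 1.40 to 1.48. For Dbp at ZT4 the lowest WT mouse had 1.885 and the others 3.47 to 3.61, and for Fmo2 at ZT8 the highest WT mouse had 1.96.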

How the results depend on the processing

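No named gene called in level changed sign under the alternatives run, but the balance of calls did: libraries shifted to 1 median gave 1340 higher and 1305 lower, and quantile normalisation 1408 and 1355, against 1242 and 1369. A stricter filter (mean of at least 2 log2 FPKM) left fewer genes tested and gave 725 higher and 837 lower in level, with rhythm called for 4 genes in Mu-RE and 337 in WT. Weighting libraries by their quality gave 309 genes with a rhythm difference, 22 rhythmic in Mu-RE and 937 in WT. A gene length term gave 15 rhythmic genes in Mu-RE. The cause of these last shifts was not tested. Fitting all libraries of the series at once gave 879 higher and 995 lower, and 77 rhythm differences.

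Leaving out an animal of every time point and group, which removes up to 12 of 48 mice, or WT replicate 1 alone, gave 809 to 1177 genes higher and 934 to 1276 lower in level, 7 to 102 rhythm differences, 1 to 7 rhythmic genes in Mu-RE and 184 to 499 in WT. The ranges were 996 to 1291 higher and 789 to 1187 lower for Mu-RE at 26 weeks, 1741 to 2319 higher and 1612 to 2136 lower for knockout at 26 weeks, 30 to 49 for rhythm in WT at 26 weeks, and 800 to 1210 higher and 462 to 1038 lower for age. Fewer samples enter each of these fits.

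With the replicate number as a block, 1209 genes were higher and 1314 lower, and 108 had a rhythm difference; at 26 weeks it gave 1535 higher and 1568 lower, against 1616 and 1426. Same-numbered mice of the same time point correlated between -0.412 and 0.405 (23 pairs, median 0.0384, 8 above 0.1). Whether some pairs share more than the number and the time point was not tested.

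Of the 143 named genes called in level, 101 kept their call throughout, among them Spon2, Fmo2, Csrp3, Pi16 and C1qc. Of the 23 named genes called in rhythm difference, 5 kept it: Arntl, Nr1d1, Per2, Spon2 and Dusp7. Dbp lost it in 3 settings, with an adjusted p up to 0.212, and Per1 in 1, with 0.0726. The call for Mir1968 was lost with 1 FPKM added and with 1 set of mice left out. Clock, Rora, Bhlhe40, Cdh5, Flt1, Arrdc2, Fkbp5, Nr4a3, Pgm1 and Slc16a10 lost their level call with some mice left out.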

Other observations

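Among Mu-RE mice of the same time point, a mouse with more Arntl had less Dbp. The deviations of each mouse from its time-point mean correlated at r = -0.782 in Mu-RE (n = 25, permutation within time points, p = 0.00129, adjusted 0.029 over 45 relations; rho = -0.745, p = 0.00121, adjusted 0.0216) and at r = -0.711 in WT (n = 23, p = 0.00099, adjusted 0.029; rho = -0.675, p = 0.00144, adjusted 0.0216). Without the 2 mice farthest from the median of Arntl, r was -0.712 in Mu-RE and -0.585 in WT. In Mu-RE mice of 26 weeks r was -0.593 (n = 24, p = 0.0546, adjusted 0.154), which did not pass. By the same permutation, Tef (rho = -0.735, adjusted p = 0.0216) and Per3 (rho = -0.703, adjusted p = 0.029) also passed on rho in Mu-RE mice of 10 weeks. On r they did not pass (adjusted p = 0.0566 for Tef and 0.0584 for Per3). On rho the relation was therefore not particular to Dbp. All these relations were computed after the data were seen.

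Other gene lists had calls in both directions or few calls, to be read against the 12.6% of all genes called higher and 13.9% called lower. Of 29 fatty acid uptake and oxidation genes 4 were higher and 3 lower, with a median of 0.03, and of 21 atrophy and autophagy genes 3 were higher and 4 lower. Of 16 antioxidant genes 1 was higher and 4 lower. Of 10 p53 target and senescence genes 3 were higher and 2 lower. Of 7 denervation and myogenic genes 2 were higher and 3 lower, and of 10 cholesterol genes 0 were higher and 1 lower. The p53 and senescence list and the denervation and myogenic list, both short, had the largest called shares among these. Both were above the shares of all genes in each direction.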
